A study of Rattus norvegicus with 6 samples.

Results

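The genes described here make cholesterol and fatty acids. They are 33 genes chosen by name: 18 enzymes of sterol synthesis, 5 genes that control or carry sterols, and 10 genes of fatty acid synthesis and desaturation. A gene was a member where a non-control probe of the array, as named in the file of Ta replicate 1, carried its symbol. All 33 were found, on 57 probes, among 34911 gene names on the array, of which 19601 had enough signal to be tested. The cells were rat bone marrow stromal cells (rBMSCs), the adherent cells that grow out of marrow and can form bone, fat or cartilage, here from the marrow of tibias. They were grown for 7 days on titanium whose surface had been modified with tantalum (Ta, 3 cultures) or on simple titanium (Ti, 3 cultures), and total RNA of each culture was hybridised to 1 one-colour Agilent array. No agent or genotype differs between the groups in the labels, which give neither the strain, sex or age of the rats nor how many animals each culture came from. The design text calls the cultures separate experiments. The treatment text of the Ti arrays repeats the tantalum wording, so the groups were taken from the titles, which the culture field matches.

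Cells build cholesterol from acetyl-CoA through mevalonate, isoprenoids, squalene and lanosterol, and build saturated fatty acids from the same acetyl-CoA through malonyl-CoA. When membrane sterol is low, the membrane-bound SREBP proteins, encoded by Srebf2 and Srebf1, are cut free and switch on nearly every enzyme of the sterol branch and many of the fatty acid branch, so genes of a branch often move together. Sterol excess is met by the opposite response and by LXR receptors, which raise the sterol pumps Abca1 and Abcg1 and, through Srebf1, the fatty acid branch. In marrow stroma these routes supply membrane for dividing cells and lipid for cells that turn into fat cells.

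All 6 arrays lay on 1 slide with 1 scan, the Ta arrays and Ti replicate 1 in its row 1 and Ti replicates 2 and 3 in its row 2, and 62.7% to 65.9% of spots were well above background. The stromal list was detected on all arrays for 11 of 12 genes, Lepr being at background. The summed signals of macrophage and adipocyte markers were lower on every Ta array than on any Ti array, and varied within the Ta group. The summed linear signal of 17 detected macrophage markers was 81699 to 208720 on Ta and 223570 to 286880 on Ti, Marco being at background, and that of 6 detected adipocyte markers was 7963 to 18813 on Ta and 28493 to 56359 on Ti. Such a sum gives most weight to the brightest genes, on Ti Lyz2 and Lpl. Gene by gene, 7 macrophage markers were lower on every Ta array, 1 (Cd14) was higher on every Ta array and 9 overlapped. Of the adipocyte markers 4 were lower on every Ta array and 2 overlapped. Over all genes the groups did not overlap for 35.8%. The defining adipocyte genes Plin1, Cidec and Lep were at background on every array and Adipoq and Lipe were above it on 1 array at most. Of all genes tested 4.12% were called. Of these lists, 0 of 17 macrophage genes were called and 1 of 6 adipocyte genes, which fell on Ta. Of the other lists, 4 of 6 tested mast cell genes fell, among them Cma1, which was above background on 0 Ta and 3 Ti arrays and passed the filter through Ti alone. Hdc, of the same list, was not called but was higher on every Ta array than on any Ti array (log2 difference 0.73). Fcer1a overlapped between the groups (-0.25), and Ms4a2 and Tpsb2 were not tested. In the remaining lists 2 of 11 stromal and 1 of 15 cell cycle genes rose, and 0 of 15 ribosomal protein genes were called. Ta replicate 1 stood apart from the other Ta arrays: its mean level was the highest of the 3 in the macrophage and adipocyte lists and the lowest in the cell cycle list. Only Ti replicate 2, which had the lowest share of spots above background (62.7%), carried a quality mark from the scanner software asking for evaluation.

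The members as a whole differed little between the surfaces. Differences are given as Ta minus Ti on the log2 scale with limma's standard error (SE), and a gene was called where its p-value, adjusted by the Benjamini-Hochberg method over all genes tested, was under 0.05. Of the 33 members 1 was called, the desaturase gene Scd, which was higher on Ta, and 0 were lower (3.03%), while 4.12% of all genes were called, 2.65% higher and 1.47% lower. Without adjustment 6 members had a p under 0.05 (18.2%), 2 higher and 4 lower, against 30.0% of all genes, 16.7% higher and 13.2% lower. The median difference of the members was -0.01 and that of all genes 0.03, and the median size of a difference, whatever its sign, was 0.15 for the members and 0.20 for all genes. The 95% interval of the difference lay within 1.5-fold in either direction for 26 members and within 2-fold for 32, Scd being the exception. Over all 19601 genes the counts were 11226 and 16242. The members were brighter than the genes they are compared with. Their mean log2 signal was 10.84 to 11.00 by array, against 8.45 to 8.53 for all genes, and the part of brightness in these comparisons was not tested. Every member was detected above background on each of the 6 arrays. Of the 17 members with several tested probes, 9 gave 1 sign on all of them and 8 gave opposite signs (Abcg1, Acaca, Acat2, Elovl6, Fdps, Lss, Srebf1 and Stard4), which leaves the direction of these 8 uncertain. RefSeq lists pseudogenes under the member's own symbol for 6 members, Acat2, Cyp51, Fdps, Idi1, Nsdhl and Scd, whose transcripts a probe could share. Pseudogenes with other names were not searched for. The arrays measured whole cultures, in which a change in the number of cells of one kind and a change in RNA per cell cannot be told apart.

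**Figure D1:**
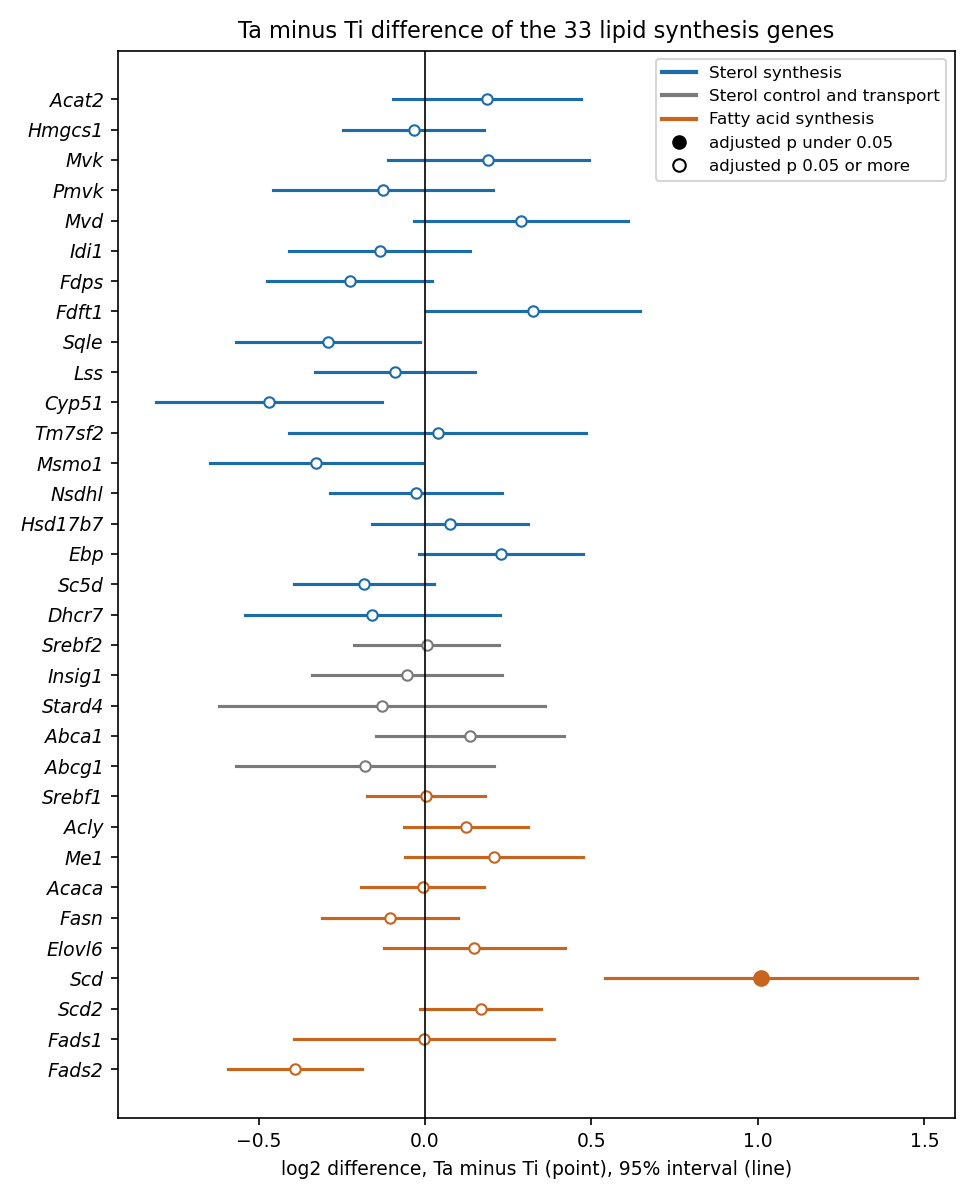
Difference of each of the 33 genes, Ta minus Ti on the log2 scale, with its 95% interval, by group of genes; filled points passed the test over all genes. Scd, at 1.01, is the only filled point, and the others lie between -0.47 and 0.32.

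The sterol branch held no call in either direction. Of its 18 enzymes 7 lay above 0 and 11 below, with a median of -0.06, and the arrays of the groups did not overlap for 6, 2 higher and 4 lower on Ta. Such separation was seen in 35.8% of all genes, 19.5% with every Ta array higher and 16.3% with every Ta array lower. The median was -0.03 for the 7 genes up to farnesyl diphosphate, -0.09 for the 3 from squalene to lanosterol and -0.09 for the 8 from lanosterol to cholesterol. The median of the 3 is the value of the Lss probe used, and the other Lss probes gave 0.16 and 0.18, so its sign is uncertain. In the counts by sign, Acat2 (above 0), Fdps and Lss (both below 0) had probes of opposite sign.

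The early genes that make the isoprenoid units did not move as a block. Hmgcs1, the synthase that forms HMG-CoA, had log2 signals of 13.79, 13.57 and 13.69 on Ta, against 13.75, 13.72 and 13.68 on Ti. Its difference was -0.03 ± 0.09 (95% interval -0.25 to 0.18, adjusted p = 0.824), an interval that lies within 1.5-fold in either direction. Mvd, which decarboxylates mevalonate diphosphate, had 10.69, 10.70 and 10.88 on Ta, against 10.34, 10.72 and 10.35 on Ti. Only Ti replicate 2 reached the Ta arrays there, and the difference was 0.29 ± 0.13 (adjusted p = 0.202), or 0.42 without that array (adjusted p = 0.0590). Fdps, the farnesyl diphosphate synthase, went the other way, with 11.92, 11.94 and 12.03 on Ta, against 12.12, 12.37 and 12.09 on Ti. The groups did not overlap on that probe and differed by -0.23 ± 0.10 (adjusted p = 0.198), but the other Fdps probe gave 0.16, and 5 Fdps pseudogenes are listed in the RefSeq annotation of GRCr8, so its direction is uncertain. The remaining genes of this stretch overlapped between the groups. Acat2, the thiolase that joins acetyl-CoA units, differed by 0.19 ± 0.12 and its 4 tested probes ran from -0.14 to 0.21. The kinases Mvk and Pmvk differed by 0.19 ± 0.12 and -0.12 ± 0.14, and the isomerase Idi1 by -0.14 ± 0.11 (adjusted p = 0.328 to 0.574 over these 4 genes).

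From squalene to lanosterol, neighbouring steps lay on opposite sides of 0. Fdft1, the squalene synthase that commits farnesyl units to sterols, had log2 signals of 11.73, 11.69 and 12.13 on Ta, against 11.54, 11.49 and 11.55 on Ti. Every Ta array was above every Ti array, with Ta replicate 3 well above the others, and the difference was 0.32 ± 0.13 (unadjusted p = 0.0481, adjusted p = 0.163). Sqle, the epoxidase that is the next enzyme and a rate-limiting one, had 12.16, 11.89 and 11.79 on Ta, against 12.23, 12.21 and 12.29 on Ti. Here every Ta array was below every Ti array, and the difference was -0.29 ± 0.11 (unadjusted p = 0.0412, adjusted p = 0.150), and the other Sqle probe gave -0.33. Ta replicate 1 lay nearest to the Ti arrays. Without it the Sqle difference was -0.40 and was called (adjusted p = 0.0384), in a fit that called 16.4% of all genes. Lss, which closes the ring to lanosterol, had a difference of -0.09 ± 0.10 with overlapping groups, and its 3 probes ran from -0.09 to 0.18.

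The later enzymes start with the demethylation of lanosterol, by Cyp51, and go on to the removal of further methyl groups, in which Msmo1 acts. Cyp51, the lanosterol demethylase, had log2 signals of 12.95, 12.59 and 12.53 on Ta, against 13.21, 13.00 and 13.26 on Ti. The groups did not overlap, although Ta replicate 1 came close to Ti replicate 2. The difference was -0.47 ± 0.14 (95% interval -0.81 to -0.13, 1.38-fold lower, adjusted p = 0.0922), and the other Cyp51 probe gave -0.46. Without Ta replicate 1 it was -0.60 and was called (adjusted p = 0.0274), in the fit that called 16.4% of all genes. Tm7sf2, the sterol reductase that acts next, overlapped between groups and differed by 0.04 ± 0.18 (adjusted p = 0.910). Msmo1, the methylsterol oxidase of a later step, had 14.39, 14.02 and 14.08 on Ta, against 14.47, 14.37 and 14.63 on Ti. Ta replicate 1 fell among the Ti arrays and the other Ta arrays lay below them, for a difference of -0.33 ± 0.13 (unadjusted p = 0.0450, adjusted p = 0.157). Without Ta replicate 1 it was -0.44 and not called (adjusted p = 0.0530). Nsdhl and Hsd17b7, which work with Msmo1 in removing methyl groups, had differences of -0.03 ± 0.11 and 0.08 ± 0.10 and overlapping groups. The other tested Hsd17b7 probe gave 0.53, with 6.92, 6.89 and 7.21 on Ta, against 6.41, 6.52 and 6.51 on Ti. All its Ta values were above its Ti values, so the probes of this gene differ in size though not in sign.

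The last steps varied in sign. Sc5d, a sterol desaturase, had 9.26, 9.12 and 9.27 on Ta, against 9.34, 9.38 and 9.49 on Ti, every Ta array being below every Ti array. It differed by -0.18 ± 0.09 (adjusted p = 0.215), and its other probe gave -0.61. Ebp, the sterol isomerase, had 12.29, 12.31 and 12.56 on Ta, against 12.20, 12.12 and 12.14 on Ti. The order was the reverse of Sc5d, every Ta array being above every Ti array, with a difference of 0.23 ± 0.10 (adjusted p = 0.190). Dhcr7, the reductase that makes cholesterol itself, overlapped between groups and differed by -0.16 ± 0.16 (adjusted p = 0.537).

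**Figure D2:**
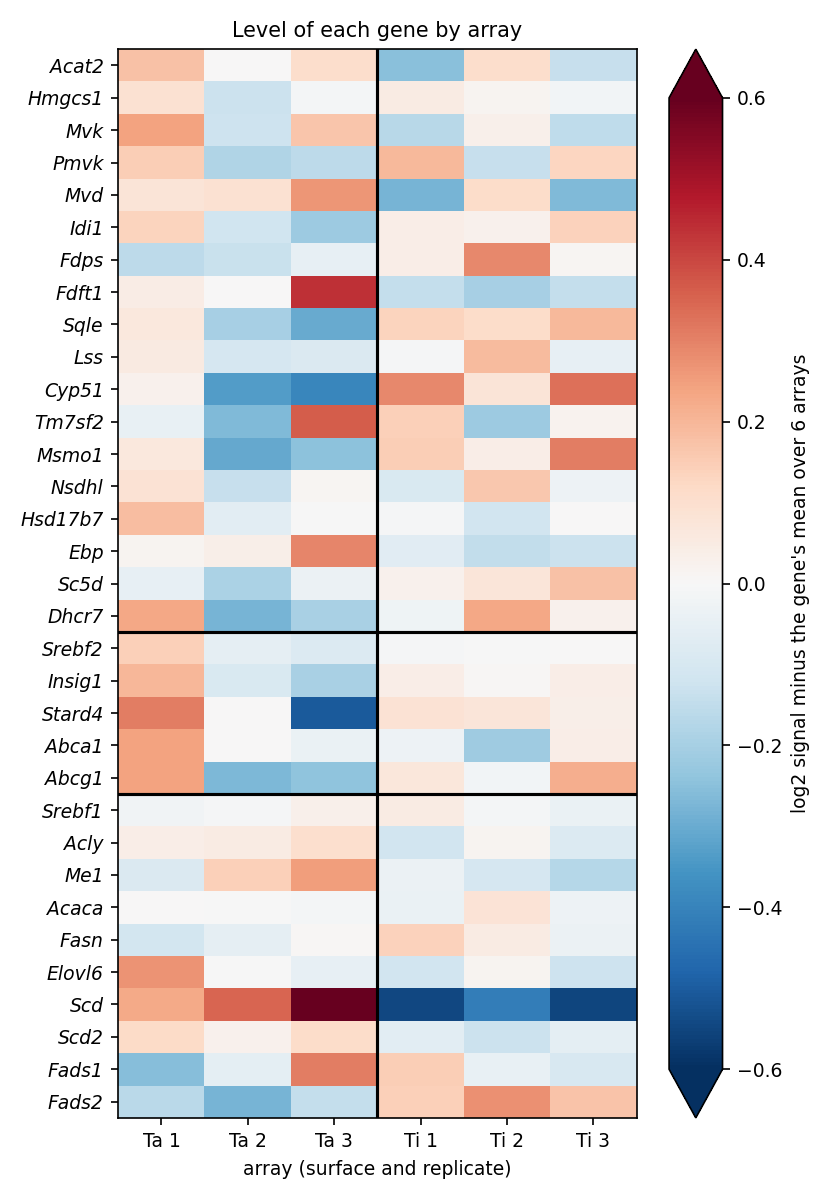
Log2 signal of each gene on each array minus the gene's mean over the 6 arrays, with Ta arrays left of Ti arrays; the colour scale ends at 0.6 in each direction. Ta replicate 1 is above the gene's own mean for 15 of 18 sterol enzymes, Ta replicate 2 for 4 and Ta replicate 3 for 7.

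The Ta replicates did not show 1 common sterol level. Ta replicate 1 was higher than both other Ta arrays for 12 of 18 sterol enzymes (66.7%) and for 20 of 33 members (60.6%), against 35.8% of all genes. The median sterol enzyme was 0.16 higher on Ta replicate 1 than on the mean of Ta replicates 2 and 3, while the median of all genes was -0.02. Relative to the mean of the Ti arrays, the median difference of the sterol enzymes was 0.07 for Ta replicate 1 and -0.11 for the mean of Ta replicates 2 and 3. Without Ta replicate 1 several uncalled differences moved by over 1.5-fold and none of these passed the test. Dhcr7 was then -0.31, Idi1 -0.24, Pmvk -0.23, Lss -0.14, Hmgcs1 -0.088 and Nsdhl -0.078. Mvk was 0.12, Tm7sf2 0.069 and Hsd17b7 0.0030, and of the fatty acid genes Elovl6 was 0.049 and Fads1 0.12 (adjusted p = 0.116 to 0.984 over these 11 genes). The spread between replicates was larger on Ta than on Ti for 24 of 33 members (72.7%), against 48.5% of all genes. These shares describe 3 arrays a group and have no test, and the sterol genes share an array's scaling, so their deviations are not independent.

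On the probes used, the genes that sense and move sterols were spread more widely on Ta than on Ti. Their median difference from the mean of the Ti arrays was 0.17 on Ta replicate 1 and -0.17 on the mean of Ta replicates 2 and 3. None (0) of the 5 was called, had an unadjusted p under 0.05 or separated the groups, with a median difference of -0.05. Insig1, the endoplasmic reticulum protein that holds SREBP back when sterol is plentiful and is itself an SREBP target, had 13.26, 12.97 and 12.87 on Ta, against 13.10, 13.07 and 13.10 on Ti. The Ti arrays lay close together and the Ta arrays fell on both sides of them. Its difference was -0.05 ± 0.12 (95% interval -0.34 to 0.23, adjusted p = 0.786), and the other probe gave -0.27. Stard4, a cytosolic sterol carrier, had 10.88, 10.58 and 10.07 on Ta, against 10.66, 10.65 and 10.61 on Ti, the same picture with a wider Ta spread. Its other probe gave a difference of 0.48, against -0.13 ± 0.20 for the one used, so the sign is uncertain. Srebf2, which encodes the SREBP of the sterol branch, had 11.14, 10.95 and 10.92 on Ta, against 10.99, 11.00 and 11.00 on Ti. It differed by 0.0054 ± 0.09 (95% interval -0.21 to 0.22), and the sign changed with the scaling, being -0.03 with median scaling. The efflux pumps Abca1 and Abcg1 differed by 0.14 ± 0.12 and -0.18 ± 0.16 (adjusted p = 0.469 and 0.487). On the probes used, all 5 genes were highest of the 6 arrays on Ta replicate 1, against 2062 of all 19601 genes. The median was 0.34 above the mean of the other Ta arrays. The other probes of Abca1 and Abcg1 were also highest there. The other Insig1 probe was highest on Ti replicate 3 (11.29, against 11.20 on Ta replicate 1) and the other Stard4 probe on Ta replicate 2. Without Ta replicate 1 the differences were -0.17 for Insig1, -0.32 for Stard4, -0.065 for Srebf2, 0.048 for Abca1 and -0.35 for Abcg1, none of them called (adjusted p = 0.0786 to 0.782). The median standard deviation (SD) of the 5 genes was 0.20 on Ta and 0.025 on Ti, against 0.13 and 0.14 over all genes. The macrophage and adipocyte markers were also highest on Ta replicate 1 among the Ta arrays, and their part in these values was not tested.

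**Figure D3:**
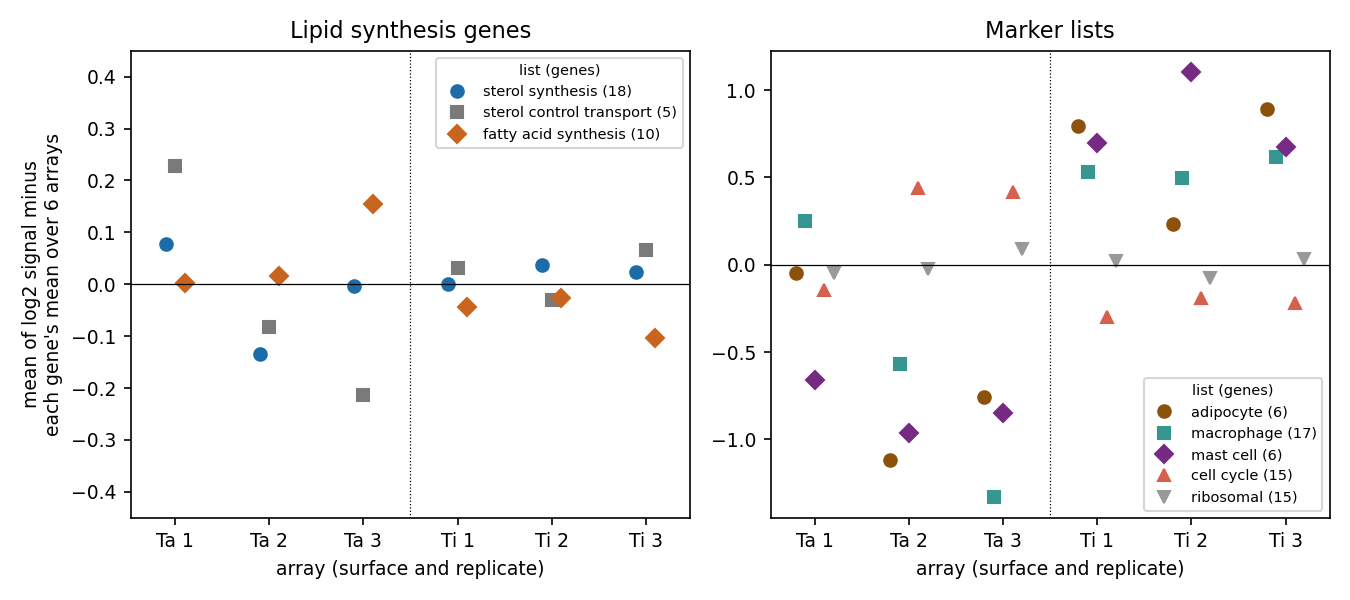
Mean log2 level of gene lists on each array, each gene taken relative to its own mean over 6 arrays, with Ta arrays left of Ti arrays. The macrophage list runs from -1.33 on Ta replicate 3 to 0.25 on Ta replicate 1, and is 0.50 to 0.62 on Ti; the sterol enzymes stay between -0.14 and 0.08 on all arrays.

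In the fatty acid branch, 1 of 10 genes rose on Ta. Scd encodes stearoyl-CoA desaturase, the enzyme that puts a double bond into saturated fatty acids, and is a target of SREBP and LXR. Its log2 signals were 9.36, 9.49 and 10.07 on Ta, against 8.59, 8.72 and 8.58 on Ti. Every Ta array was above every Ti array, with Ta replicate 3 the highest, and the Ti arrays lay close together. The mean was 9.64 ± 0.38 on Ta and 8.63 ± 0.078 on Ti (SD, n = 3 each). The difference was 1.01 ± 0.19 (95% interval 0.54 to 1.48, 2.01-fold, adjusted p = 0.0482 by limma). The call lies close to the threshold. It held without Ta replicate 1 (1.15, adjusted p = 0.0215), where 16.4% of all genes were called. The call was lost without any of the other arrays, with differences of 0.79 to 1.09 and adjusted p = 0.0559 to 0.171. Without Ta replicate 2 or 3 or Ti replicate 1 or 3, 0 genes of the whole table were called by limma (3815 to 4472 at an unadjusted p under 0.05). Such a loss is therefore not particular to Scd. Without Ti replicate 2, 1561 genes were called. Within slide row 1, where Ti replicate 1 is the only Ti array (the fit with row as a block), the difference was 1.05. Scd was measured by 1 probe, and RefSeq lists an Scd pseudogene. Cross-hybridisation, also with the Scd2 transcript, was not tested.

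Scd2, its neighbour on chromosome 1, carries out the same reaction. Its log2 signals were 13.11, 13.02 and 13.11 on Ta, against 12.93, 12.87 and 12.94 on Ti. Every Ta array was again above every Ti array, but the difference was 0.17 ± 0.07 (95% interval -0.01 to 0.35, adjusted p = 0.193). On the probes used, the intervals of the Scd and Scd2 differences do not overlap, a comparison made without a test of its own. The other Scd2 probe gave 0.50, near the lower end of the Scd interval (0.54), with every Ta array above every Ti array. The size of the contrast thus depends on the Scd2 probe. The longest run of bases that the Scd probe shares with the Scd2 probes is 7 and 9 of 60 bases. This compares probes only, and whether the Scd probe binds elsewhere on the Scd2 transcript was not tested. The genes lie side by side, and on the probes used their differences were of unlike size. For that reason the 200 bases before the transcript start that the RefSeq table gives are printed. They are RefSeq sequence of GRCr8, 5′ to 3′ on the gene's strand, at chr1:253231732-253231931 (minus strand) for Scd and chr1:253118177-253118376 (plus strand) for Scd2. The Scd window lies inside the annotated span of the gene (chr1:253218968-253232101), downstream of its 5′ end, while the Scd2 window ends where its gene begins, so the windows are not alike in position. Capitals mark CCAAT, the box bound by NF-Y, a partner of SREBP, or its reverse complement ATTGG.
Scd: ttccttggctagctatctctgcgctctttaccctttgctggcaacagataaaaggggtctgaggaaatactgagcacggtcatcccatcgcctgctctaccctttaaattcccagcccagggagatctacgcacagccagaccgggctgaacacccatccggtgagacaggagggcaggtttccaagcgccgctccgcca
Scd2: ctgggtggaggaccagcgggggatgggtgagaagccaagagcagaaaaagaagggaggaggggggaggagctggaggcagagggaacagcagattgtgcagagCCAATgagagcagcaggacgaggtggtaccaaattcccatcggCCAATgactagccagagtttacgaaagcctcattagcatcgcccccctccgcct
The Scd2 window holds 2 CCAAT boxes and the Scd window holds 0.

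The desaturase of the polyunsaturated route lay on the other side of 0. Fads2, the desaturase that starts the conversion of essential fatty acids, had 5.54, 5.42 and 5.55 on Ta, against 5.84, 5.97 and 5.87 on Ti. Every Ta array was below every Ti array and both groups were tight. The difference was -0.39 ± 0.08 (95% interval -0.59 to -0.19, 1.31-fold lower, adjusted p = 0.0554), just short of the threshold. It passed when only genes well above background on all 6 arrays were tested (adjusted p = 0.0446) and without Ta replicate 1 (-0.41, adjusted p = 0.0452). Of all genes tested, 6.60% and 16.4% were called in these fits. With normexp background correction the Fads2 difference was -0.18 (adjusted p = 0.0947), and over all 17 alternatives it ran from -0.44 to -0.18 with adjusted p of 0.0016 to 0.243. Fads1, the desaturase that acts later on the same chain, had 7.28, 7.48 and 7.85 on Ta, against 7.69, 7.49 and 7.44 on Ti. The groups overlapped, with a difference of -0.0035 ± 0.16 (95% interval -0.39 to 0.39).

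The enzymes that build the chain itself differed little. Acly, which splits citrate into cytosolic acetyl-CoA for both branches, had 13.16, 13.17 and 13.22 on Ta, against 13.01, 13.14 and 13.04 on Ti. Its Ta arrays were all above its Ti arrays, by 0.12 ± 0.08 (95% interval -0.06 to 0.31, adjusted p = 0.333). Fasn, the fatty acid synthase, had 11.61, 11.67 and 11.73 on Ta, against 11.86, 11.77 and 11.69 on Ti. Those groups overlapped and differed by -0.11 ± 0.08 (95% interval -0.31 to 0.10, adjusted p = 0.439). Srebf1, whose product drives this branch, had 10.95, 10.96 and 11.00 on Ta, against 11.02, 10.96 and 10.93 on Ti, and its difference of 0.0026 ± 0.07 (95% interval -0.17 to 0.18) turned to -0.03 with median scaling. The malic enzyme gene Me1, which supplies reducing power, and the elongase gene Elovl6 differed by 0.21 ± 0.11 and 0.15 ± 0.11 with overlapping groups (adjusted p = 0.261 and 0.416). The Acaca probe used differed by -0.0071 ± 0.08, but the file describes it as a ceramide kinase transcript, and the other probes of this acetyl-CoA carboxylase gene gave -0.16 and 0.33, so no direction is given. Over all 10 genes 6 lay above 0 and the median was 0.06. The groups did not overlap for 3 genes that were higher and 1 that was lower on Ta (40%). Over all genes the share was 35.8%, 19.5% higher and 16.3% lower, which is near that of these genes.

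**Figure D4:**
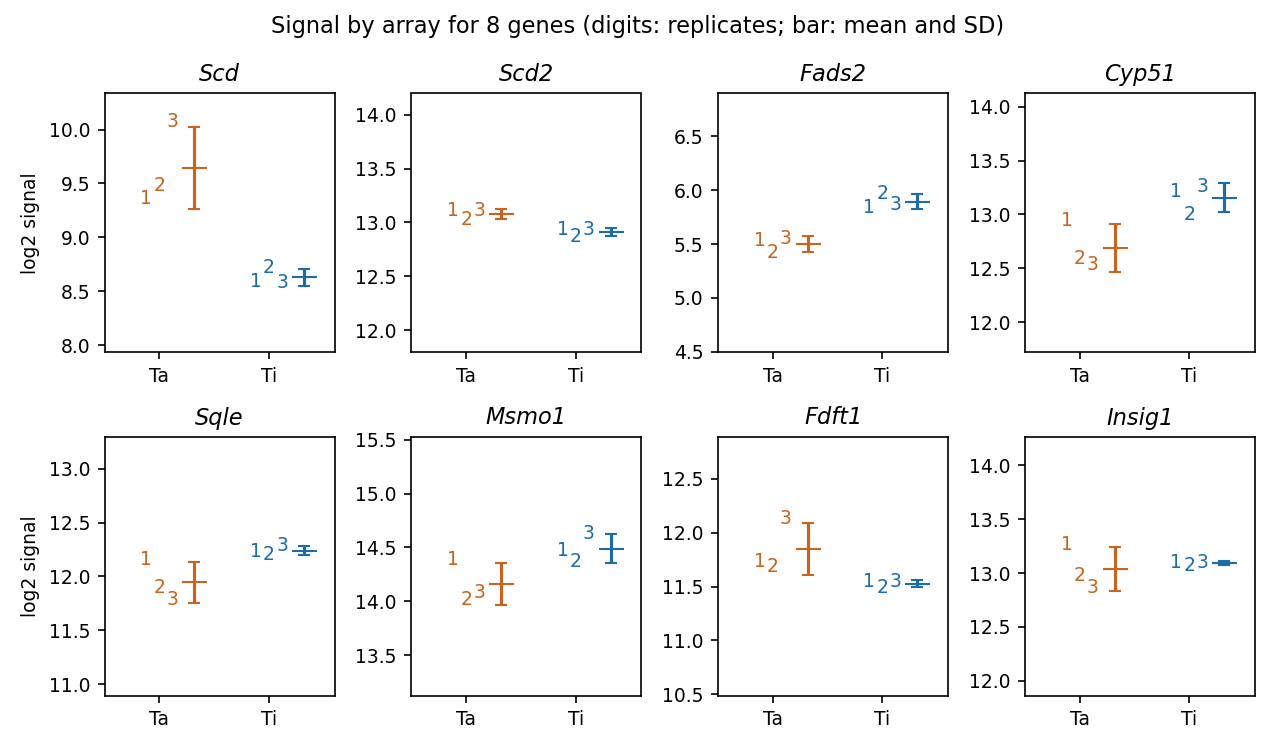
Log2 signal on each array for 8 genes, Ta left of Ti, with digits for the replicates and a bar for the mean and SD of each group; every panel spans the same log2 range. Scd is 9.36 to 10.07 on Ta and 8.58 to 8.72 on Ti, and in Cyp51, Sqle and Insig1 Ta replicate 1 is the highest Ta array.

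Promoters were compared for the 25 members with a window in the RefSeq table of GRCr8, from 250 bases before to 50 bases after the start. Both strands were searched. A member counted where any of its windows held the motif, while the share of all genes is over single windows, so the shares differ in unit. CCAAT was present in 18 of 25 members (72%), against 37.5% of the 33469 windows of all genes. By group it was in 12 of 15 sterol enzymes, 2 of 3 control and transport genes and 4 of 7 fatty acid genes. The sterol regulatory element core TCACNCCAC was in 0 of 25, against 1.12% of all windows, and CACCCCAC, which can lie inside it, was in Ebp alone (4%), against 2.70%. The windows of Cyp51 and Msmo1 are shown because these genes had the lowest differences of the 18 sterol enzymes on the probes used. They are the 200 bases before the start at chr4:30991493-30991692 and chr16:29746913-29747112, both on the plus strand, with CCAAT or ATTGG in capitals.
Cyp51: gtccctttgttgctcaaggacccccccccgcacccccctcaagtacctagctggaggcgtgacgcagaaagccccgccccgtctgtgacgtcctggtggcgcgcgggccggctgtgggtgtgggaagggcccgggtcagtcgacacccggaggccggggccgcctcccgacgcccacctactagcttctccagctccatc
Msmo1: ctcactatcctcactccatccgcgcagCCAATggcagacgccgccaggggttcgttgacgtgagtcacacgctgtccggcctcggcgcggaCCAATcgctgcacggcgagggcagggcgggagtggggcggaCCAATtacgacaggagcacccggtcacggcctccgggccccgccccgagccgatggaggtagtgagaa
Msmo1 holds 3 boxes and Cyp51 holds 0.

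The pathway genes outside the members gave a similar count. Of 31 other genes of sterol synthesis, uptake and handling, all tested, 0 were called by limma, and the median difference was -0.04. An unadjusted p under 0.05 was found for 8 (25.8%), 2 higher and 6 lower. Of all genes 30.0% had such a p, 16.7% higher and 13.2% lower. Nr1h3, which encodes an LXR, had 10.29, 10.43 and 10.63 on Ta, against 9.98, 9.88 and 9.81 on Ti. Every Ta array was above every Ti array, and the difference of 0.56 ± 0.11 missed the threshold (adjusted p = 0.0515), though not without Ta replicate 1 (0.64, adjusted p = 0.0221). Without that array 16.4% of all genes were called.

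Of 34 other genes of fatty acid synthesis and use, 30 were tested, 1 rose and 0 fell (3.33%, against 4.12% of all genes), with a median of -0.04. Elovl7, Mlxipl, Thrsp and Pnpla3 were at or near background and were not tested. The gene that rose was Cpt1a, which admits fatty acids to mitochondria for oxidation, with 8.95, 9.20 and 9.29 on Ta, against 8.57, 8.55 and 8.34 on Ti. The groups did not overlap and differed by 0.65 ± 0.12 (adjusted p = 0.0472), a call lost without Ta replicate 2 or 3 or any Ti array (0.58 to 0.70, adjusted p = 0.0519 to 0.175). In these fits 0 genes of the whole table were called, except without Ti replicate 2, where 1561 were. Acsl1, which activates fatty acids for use, had 11.13, 11.39 and 11.37 on Ta, against 10.67, 10.90 and 10.76 on Ti. The groups were again apart, by 0.52 ± 0.11 (adjusted p = 0.0548, and 0.0222 without Ta replicate 1, where 16.4% of all genes were called). Among the adipocyte markers, Lpl, the lipase that releases fatty acids from lipoproteins, is named after its value was seen: it had 13.03, 11.72 and 11.90 on Ta, against 14.92, 13.99 and 15.13 on Ti and fell, with a difference of -2.46 ± 0.44 (adjusted p = 0.0453). It was the 1 call among the 6 tested adipocyte markers, of which 5 lay below 0. With an array left out the Lpl difference stayed between -2.87 and -2.21. The call was lost without Ta replicate 2 or 3 or Ti replicate 1 or 3 (adjusted p = 0.136 to 0.165), fits in which 0 genes of the whole table were called by limma (3815 to 4472 at an unadjusted p under 0.05).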

How the data were processed

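The deposited files hold spot intensities of 6 one-colour Cy3 arrays. Per the file headers, the authors' Agilent Feature Extraction subtracted background to give the processed signal, a linear intensity not scaled between arrays; the submitters' processing notes name version 12.0 and limma. The deposited value table equalled the processed signal on every array (100%). 

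From these intensities, log2 processed signals were reduced by each array's 75th percentile over 58717 non-control spots, and the mean percentile was added back. Outlier spots (0.577% to 0.841% of an array) were left out and spots of 1 probe averaged. The filter kept 25764 of 45598 probes, those well above background on 3 or more arrays, and 25756 had no missing value. Taking the brightest probe of each gene gave 19601 genes. Member names came from the file of Ta replicate 1, and 30593 probes were named through a RefSeq table of GRCr8. Sequences came from RefSeq tables, not from a genome.

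The test was the two-sided moderated test of limma 3.58.1 under R 4.3.3, its p-values adjusted by Benjamini-Hochberg over all genes. SE is limma's moderated standard error, and ± beside a mean is the SD. The 3 arrays in each group limit the precision, and nothing in the labels beyond the design text says that cultures came from separate animals. On simulated data of 19601 genes with 200 changed, this comparison recovered 68% of changes of 1 log2 unit and 91% of changes of 2, with 6 false calls of 165. In the real data 30.0% of all genes had an unadjusted p under 0.05 by limma, so these rates need not hold there. Recovery of changes under 1 log2 unit, the size of every member difference but that of Scd, is not given. The members and lists were chosen with earlier results of these data known. Named are all members and, of the other sterol and fatty acid genes, those that passed or, where fewer than 3 passed in all, also the 3 with the smallest p. The alternatives were 3 other scalings, normexp background correction, 2 other probe filters, a replicate or slide row block, trended and robust eBayes, array weights, the mean of probes, and each array left out. No alternative was added later.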

Additional observations from a re-analysis of the deposited data

How the results depend on the processing

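Of all genes tested, 808 were called. The count was 776, 830 and 782 with median, detected-probe and quantile scaling, 797 with the mean of probes, and 1176 with genes above background on all arrays. It was 2215 with normexp correction, 2103 with trended and robust eBayes, 10184 with array weights, 8 with the replicate block, 0 without the dim-probe filter and 0 with the slide row as a block (5814 and 3837 at an unadjusted p under 0.05), and 0 to 3218 with each array left out. It was 0 without Ta replicate 2 or 3 or Ti replicate 1 or 3, 3218 without Ta replicate 1 and 1561 without Ti replicate 2. The share of calls that were higher on Ta was 64.4%, and 53.5% with median scaling and 53.0% with normexp. Members called higher were 3 with array weights, 0 with no filter, the replicate block or the slide row, and 0 to 1 with an array left out. Members called lower were 9 with array weights, 1 with trended and robust eBayes (Cyp51, adjusted p = 0.0499), 1 with genes above background on all arrays, and 0 to 3 with an array left out. Weighting the arrays (7.35 for Ta replicate 2, 0.318 to 2.76 for the rest) moved the sterol median to -0.14.

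The replicate numbers share only a number: same-numbered arrays correlated at 0.06, 0.13 and -0.18. With the replicate block Scd was 1.01 (adjusted p = 0.0879), and 0 members were called. Over all 17 alternatives Scd stayed between 0.79 and 1.15, with adjusted p of 0.0019 to 0.206, the highest with the slide row as a block.

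Signs turned for genes that were not called. With median scaling Srebf2 was -0.029 and Srebf1 -0.032, and with normexp Srebf1 was -0.0032. With the slide row as a block Tm7sf2 was -0.13, Nsdhl 0.080, Srebf1 -0.047 and Acaca 0.035. With array weights Tm7sf2 was -0.23, Hsd17b7 -0.043, Srebf2 -0.046, Acaca 0.021 and Fads1 0.0080. With the mean of probes Lss was 0.086, Stard4 0.17, Abcg1 0.022, Srebf1 -0.025 and Acaca 0.055. With an array left out the range was -0.065 to 0.049 for Srebf2, -0.16 to 0.12 for Fads1, -0.088 to 0.023 for Hmgcs1, -0.081 to 0.047 for Nsdhl, -0.13 to 0.18 for Tm7sf2, -0.17 to 0.028 for Insig1, -0.32 to 0.089 for Stard4, -0.017 to 0.027 for Srebf1 and -0.028 to 0.032 for Acaca. The cause was not tested. All members were above background on all arrays.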

Other observations

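Genes that take up, carry or store lipid, from the same pathway lists, included several with differences far from 0, and none of those given here passed the test over all genes. They are named after their values were seen. Apoe, the lipoprotein component that macrophages secrete in quantity, had 14.98, 13.32 and 12.48 on Ta, against 15.53, 15.71 and 15.73 on Ti. All Ta arrays were below all Ti arrays and the Ta arrays were themselves far apart, for a difference of -2.07 ± 0.60 (adjusted p = 0.0864). Cd36, a fatty acid and lipoprotein scavenger receptor, had 11.55, 9.79 and 9.75 on Ta, against 12.26, 11.36 and 12.73 on Ti, with 1 Ta array inside the Ti range, and differed by -1.75 ± 0.58 (adjusted p = 0.109). Scarb1 and Vldlr, receptors for high-density and very-low-density lipoproteins, differed by -0.93 ± 0.20 and -0.62 ± 0.15 (adjusted p = 0.0567 and 0.0670), each with every Ta array below every Ti array. Dgat2, which makes triglyceride, went the other way, with 9.61, 9.98 and 10.32 on Ta, against 8.82, 9.33 and 8.75 on Ti and a difference of 1.004 ± 0.23 (adjusted p = 0.0625). For Apoe the order of the Ta arrays was that of the mean macrophage marker level, with Ta replicate 1 highest and Ta replicate 3 lowest, and the part of those cells in these values was not tested. Without Ta replicate 1 the differences of Apoe, Cd36, Scarb1, Vldlr and Dgat2 were called (adjusted p = 0.0081 to 0.0298), in a fit that called 16.4% of all genes.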
